A study of Mus musculus with 8 samples.

Results

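Integrin subunits and laminin chains were followed in BMEL cells, a bipotential line of mouse embryonic liver cells, after transfection with a GRHL2 plasmid or the control plasmid pcDNA3. Genes were taken by symbol: every integrin alpha or beta subunit and every laminin alpha, beta or gamma chain with a row in the table, leaving out the integrin-binding proteins and Itgbl1, which carry the prefix but are not subunits. The rule used no measured value and found 36 of 18671 genes, of which 35 are described here: 17 integrin alpha subunits, 9 integrin beta subunits and 9 laminin chains. The subunit Itgad and the chain Lama4 had no row in the table and were not analysed.

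Adhesion to the extracellular matrix runs largely through integrins, receptors that reach the cell surface only as a pair of one alpha and one beta subunit. Laminins are the main adhesive proteins of the basement membrane, and each is a trimer of one alpha, one beta and one gamma chain wound into a cross, so that the name laminin-511 stands for alpha 5, beta 1 and gamma 1. In the liver, bile duct cells rest on a laminin-rich basement membrane, whereas hepatocytes face a space with little of it. GRHL2 is a transcription factor of epithelia, known for genes of cell junctions.

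The study had 4 control samples and 4 GRHL2 samples of this 1 line, all collected 48 h after transfection. Control cells received the plasmid pcDNA3. GRHL2 cells received pGRHL2, which carries human GRHL2 with a Flag tag and EGFP on the same transcript under the EF1A promoter, so that the groups differ in the tag and EGFP as well as in GRHL2. All cells were grown on collagen, itself an integrin ligand, in serum with EGF, IGFII and insulin. The study describes the samples of a group as independent biological replicates.

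Values are regularised log2 counts from which log2 transcript length was subtracted, so that genes can be compared in level per length. The study averaged the length over the transcripts of a gene, so levels of different genes compare only roughly. Differences are GRHL2 minus control on this log2 scale. The regularisation pulls poorly counted genes toward their own mean, so their differences are understated, and the read depth of each sample is unknown. Tests were limma fits over all 18671 genes, with Benjamini-Hochberg adjustment and a call at an adjusted p under 0.05. The mouse Grhl2 row read 4.68, 4.57, 4.42 and 4.44 in control samples 1 to 4 and 6.30, 6.96, 5.65 and 6.05 in GRHL2 samples 1 to 4, a rise of 1.71 (SE 0.22, adjusted p = 0.001), although the plasmid carries the human sequence. Hnf4a, a hepatic transcription factor, and Krt19 and Krt7, keratins of bile duct cells, averaged above the table median, as did all 6 biliary markers, while Alb, the plasma protein albumin, stayed below it. Of these biliary markers Krt7, Epcam and Cldn4 rose. The summed level of all 6 was 15.19 to 15.48 in control and 15.59 to 15.69 in GRHL2 samples. Krt19, at a control mean of 15.05, made up most of it and was not called. The part of the biliary markers in the integrin and laminin values was not tested. Of the other lists in the table, 1 of 5 hepatoblast and hepatocyte markers fell (Afp). Of 5 stellate cell and fibroblast markers 2 rose from low levels (Pdgfrb and Reln). The summed level of all 5 was 5.55 to 5.82 in control and 5.69 to 5.95 in GRHL2 samples. Col1a1, at a mean of 5.28, made up most of it and was not called. Of the endothelial markers 0 of 5 were called, and of the platelet markers 0 of 2. With the replicate number as a block, all 6 biliary markers and 3 stellate cell and fibroblast markers were higher. So were the endothelial markers Kdr and Tek, the leukocyte and Kupffer cell marker Cd68 and the platelet marker Ppbp. Of all genes 10.5% rose and 5.91% fell, or 18.2% and 13.9% with the block. No marker list was tested against these shares. In bulk samples a changed level per cell and a changed share of cells cannot be told apart.

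Across the 35 genes, 6 rose in GRHL2 samples and 1 fell. The genes that rose were the laminin chains Lama3 and Lamb1 and the integrin alpha subunits Itga1, Itga6, Itga8 and Itga9, and the gene that fell was Itgb7. This was 17.1% rising, where 10.5% of all genes rose, and 2.86% falling, where 5.91% of all genes fell, or 7 of 35 called in either direction against 16.4% of all genes. The remaining 28 did not pass the test, which does not show that they were unchanged. By kind, 4 of 17 alpha subunits, 0 of 9 beta subunits and 2 of 9 laminin chains rose, and with the replicate number as a block 6 of 17, 2 of 9 (Itgb1 and Itgb4) and 2 of 9 did. The median difference was 0.047 over the 35 genes and 0.0066 over all genes, and 24 of 35 differences lay above 0, where 53.9% of all genes did. With the replicate number as a block, 10 rose and 4 fell, against 18.2% and 13.9% of all genes, and 14 were called in either direction against 32.1%. The groups did not overlap for 7 genes with GRHL2 higher and 2 with GRHL2 lower, against 14.3% and 9.47% of all genes. All 4 same-numbered pairs were higher with GRHL2 for 13 genes and lower for 4, against 27.3% and 21.3% of all genes. None of these shares was tested against that of all genes.

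**Figure D1:**
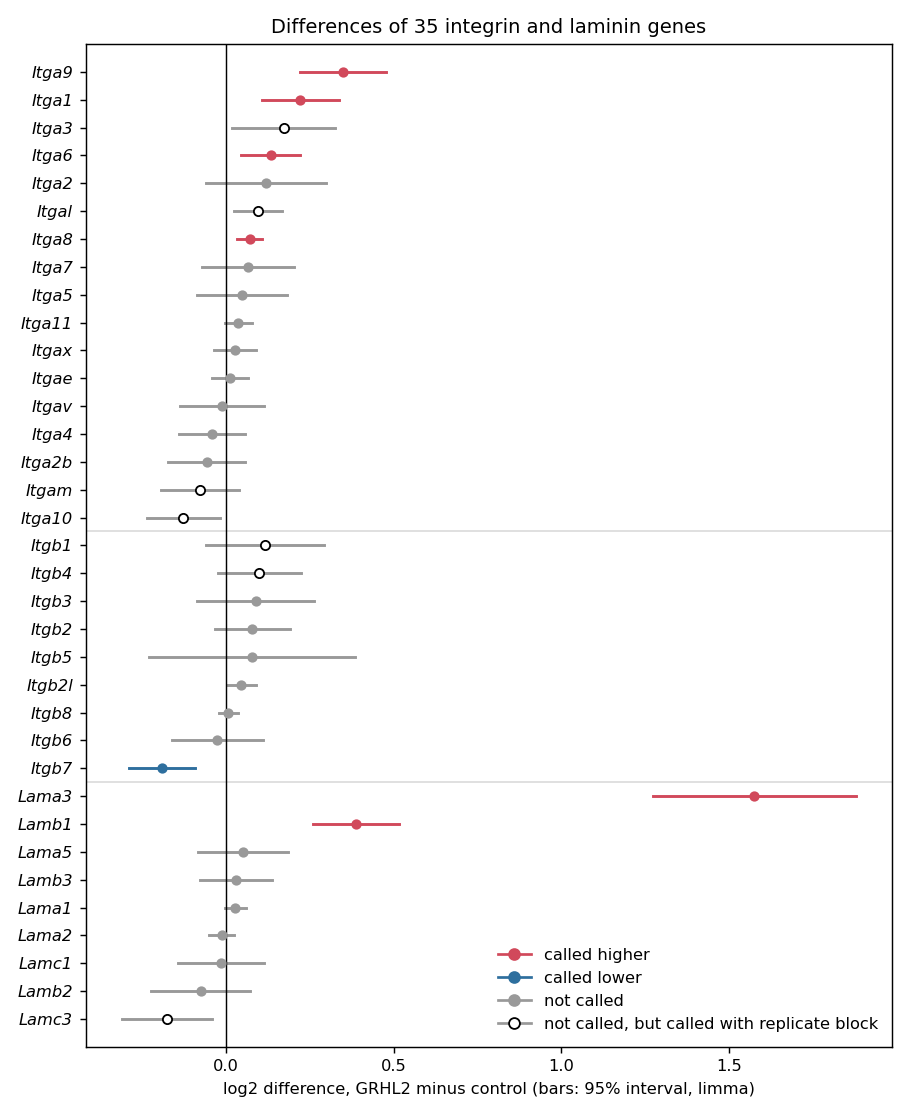
GRHL2 minus control difference in log2 units for each of the 35 integrin and laminin genes, with the 95% limma interval as a bar, colour for the call at an adjusted p under 0.05 and open points for genes not called here but called with the replicate block. Lama3 stands apart at 1.57, and the other differences lie between -0.19 and 0.39.

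Lama3 encodes the alpha 3 chain, which carries the binding site for integrins in its trimers (ENSMUSG00000024421, chr18:12333819-12583013, plus strand; build GRCm38). Its level was 4.13, 4.39, 4.18 and 4.24 in control samples 1 to 4 and 5.71, 6.28, 5.64 and 5.61 in GRHL2 samples 1 to 4. Every GRHL2 sample lay above every control sample, and GRHL2 sample 2 was the highest. The mean went from 4.24 ± 0.11 to 5.81 ± 0.32 (SD, n = 4), a difference of 1.57 (SE 0.14, 95% interval 1.27 to 1.88, adjusted p = 0.000144) or 2.98-fold. By size of rise it ranked 6 among the 18671 genes. The difference held between 1.42 and 1.64 when each sample was left out in turn. An antisense gene model overlaps 1.83% of the exonic bases of Lama3, and counting ignored strand.

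Lamb1 encodes the beta 1 chain, shared by laminin-111, laminin-211, laminin-311 and laminin-511 (ENSMUSG00000002900, chr12:31265234-31329644, plus strand). Its level was 9.55, 9.72, 9.61 and 9.78 in control samples 1 to 4 and 10.03, 10.09, 10.02 and 10.08 in GRHL2 samples 1 to 4. The GRHL2 samples lay within a narrow band above all controls. The mean went from 9.67 ± 0.11 to 10.05 ± 0.033 (SD, n = 4), a rise of 0.39 (SE 0.057, 95% interval 0.26 to 0.51, adjusted p = 0.00185) or 1.31-fold. Lamb1 was called in all 8 fits that left out 1 sample.

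**Figure D2:**
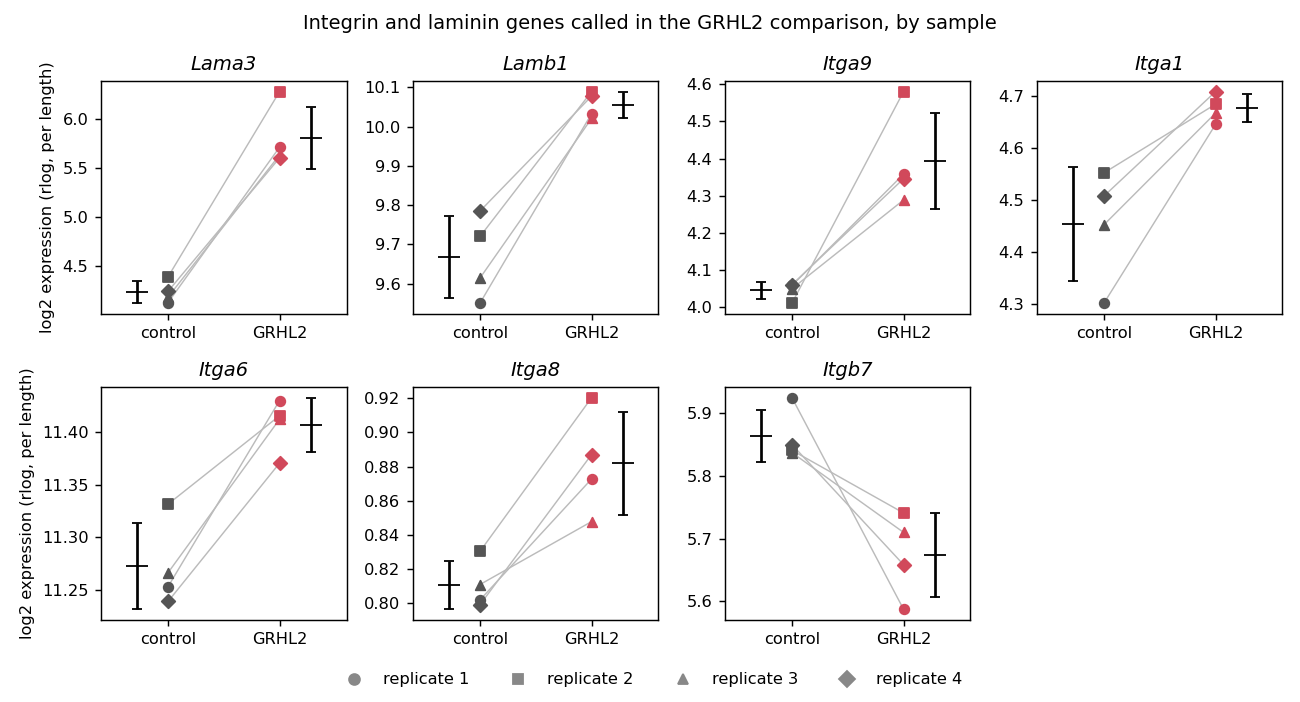
Level of the 7 called genes in each sample, in log2 units per transcript length, with control samples in grey and GRHL2 samples in red, marker shapes for the replicate number, grey lines joining samples of one number, and black bars for the group mean ± SD (n = 4). Each panel has its own vertical scale, so that the step of 1.57 for Lama3 and that of 0.071 for Itga8 are not drawn alike. In all 7 panels the groups do not overlap.

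The other 7 laminin chains did not pass the test. Lamb3, the beta 3 chain and a partner of Lama3, read 12.04, 12.08, 12.13 and 12.18 in control samples 1 to 4 and 12.14, 12.24, 12.11 and 12.08 in GRHL2 samples 1 to 4. Its groups overlapped, and the difference was 0.031 (95% interval -0.077 to 0.14, adjusted p = 0.713). Lama5, the alpha chain of laminin-511 and laminin-521 and the most abundant laminin chain here per length, read 12.25, 12.38, 12.32 and 12.43 in control samples 1 to 4 and 12.38, 12.26, 12.48 and 12.48 in GRHL2 samples 1 to 4, with overlapping groups. It differed by 0.052 (95% interval -0.083 to 0.19, adjusted p = 0.609). Lamc1, the gamma chain of most laminins, read 11.42, 11.32, 11.38 and 11.42 in control samples 1 to 4 and 11.43, 11.22, 11.45 and 11.39 in GRHL2 samples 1 to 4, again with overlap. It differed by -0.013 (adjusted p = 0.907) and Lamb2, the beta 2 chain, by -0.074 (adjusted p = 0.49). Lamc3, a less widely used gamma chain, averaged 3.68 in control and 3.51 in GRHL2 samples, which did not pass the test (adjusted p = 0.0772) but did with the replicate block (adjusted p = 0.0106) and with the term for replicates 1 and 2 against 3 and 4 (0.0111). Lama1 and Lama2, chains of embryonic and muscle basement membranes, averaged -1.25 and 0.35, near the foot of the table. Lama1 (adjusted p = 0.184) was called higher after scaling to an equal upper quartile (0.0166) or an equal sum (0.0425), and without GRHL2 sample 4.

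A trimer needs all of its chains, so the lowest chain of each was read beside the next. In laminin-311 the lowest chain was Lama3 in 8 of 8 samples. It lay 5.43 log2 units below the next chain in control samples and 4.25 below in GRHL2 samples, or 43.2-fold and 19.0-fold lower per length. In laminin-321 Lama3 was again the lowest, and the gap went from 6.99 to 5.34. In laminin-511 the lowest chain was Lamb1, and the gap went from 1.72 to 1.32. In laminin-521 the lowest chain was Lamb2, with a gap of 0.16 in control and 0.22 in GRHL2 samples. Of the 10 trimers described here, 2 had their lowest chain above the table median of 6.45, and these were laminin-511 and laminin-521. The gaps depend on the transcript lengths, averaged here over the models of a gene, which ran from 1.18 kb for Lamb2 to 8.05 kb for Lama3. Without the length the gap over all samples was 3.19 for laminin-311, 3.39 for laminin-321, 1.32 for laminin-511 and 1.12 for laminin-521, with the same lowest chains. Transcript levels of this kind say nothing of how much trimer was made or secreted.

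Ratios within a sample compared chains or subunits directly, and 4 ratios were chosen after the values had been seen. Lama3 relative to Lamb3 went from -7.87 ± 0.12 to -6.33 ± 0.25 (SD, n = 4; two-sided exact permutation p = 0.0286, adjusted over the 4 ratios 0.0571), the smallest p that 4 against 4 samples allow. Lamb1 relative to Lamb2 went from -1.56 to -1.10, a difference of 0.46 at the same exact and adjusted p. In both ratios the groups did not overlap, but neither passed 0.05 after adjustment. Lama3 and Lamb1 had already been seen to rise, so these ratios add no separate support.

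**Figure D3:**
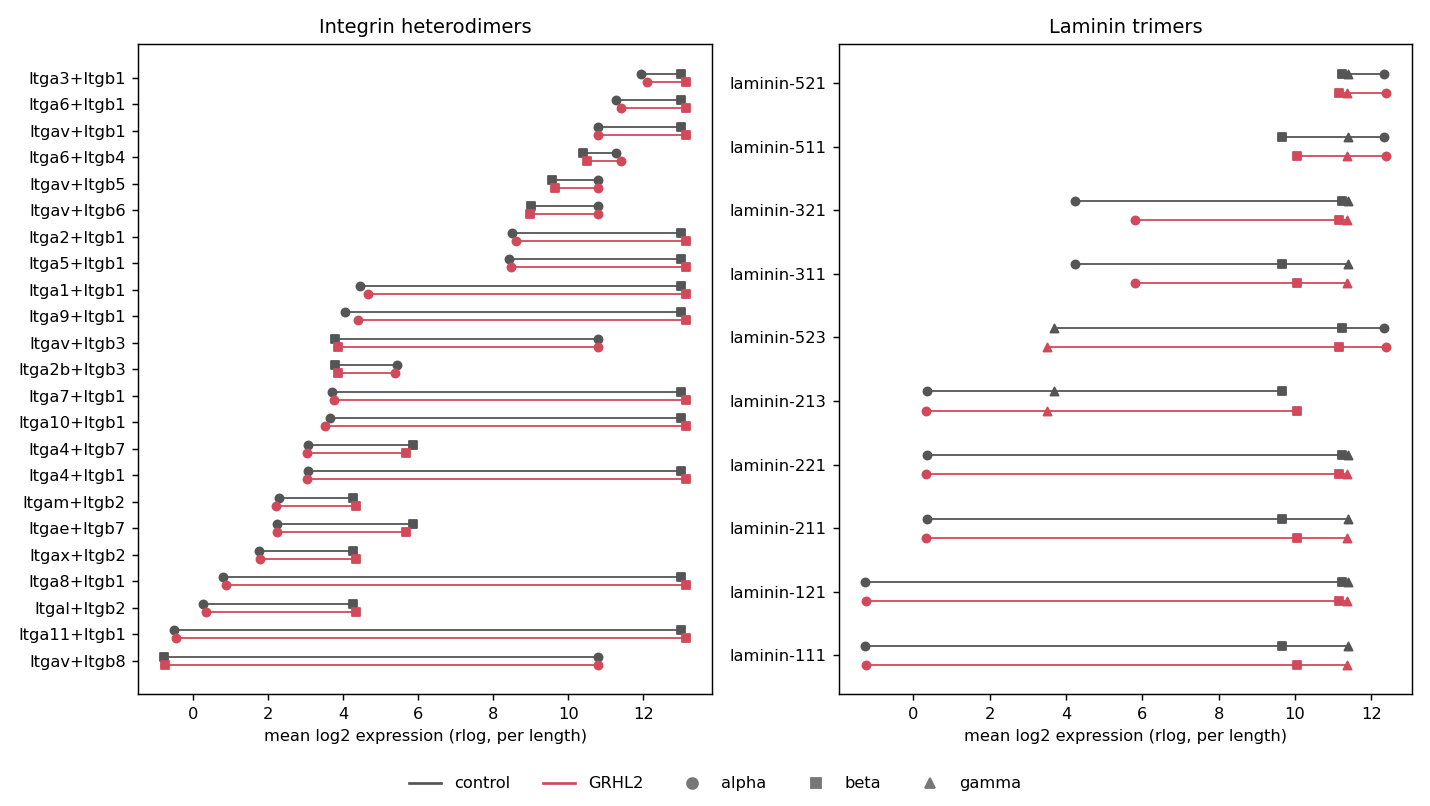
Group mean level, in log2 units per transcript length, of every subunit of the 23 integrin pairs and every chain of 10 laminin trimers, with control in grey, GRHL2 in red, marker shapes for alpha, beta and gamma, and a line joining the members of one complex. For laminin-311 the lowest chain is Lama3 at 4.24 in control and 5.81 in GRHL2 samples.

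Replicates 1 and 2 stood apart from replicates 3 and 4 in both groups, so the called genes were also fitted within each of these sets. In replicates 1 and 2 the differences were 1.74 for Lama3, 0.43 for Lamb1, 0.44 for Itga9, 0.24 for Itga1, 0.13 for Itga6, 0.080 for Itga8 and -0.22 for Itgb7. In replicates 3 and 4 they were 1.41, 0.35, 0.26, 0.21, 0.14, 0.062 and -0.16 in the same order. The groups of these 7 genes do not overlap, which fixes the direction in any subset of the samples. Lama3, Lamb1 and Itga9 passed the test in both sets. In replicates 1 and 2 the adjusted p was 0.162 for Itga1, 0.232 for Itga6, 0.121 for Itga8 and 0.136 for Itgb7, and in replicates 3 and 4 it was 0.0761 for Itga8 and 0.0555 for Itgb7. In fits that left a replicate number out of both groups, Itga1, Itga6 and Itgb7 were not called without number 1, 3 or 4, nor Itga8 without number 1 or 4, while Lama3, Lamb1 and Itga9 were called in all 4.

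Laminins are bound chiefly by the pairs of Itga3, Itga6 or Itga7 with Itgb1 and by Itga6 with Itgb4, the pair that anchors hemidesmosomes. Itga6 (ENSMUSG00000027111, chr2:71745616-71858416, plus strand) read 11.25, 11.33, 11.27 and 11.24 in control samples 1 to 4 and 11.43, 11.42, 11.41 and 11.37 in GRHL2 samples 1 to 4. The groups were apart by a small margin, and the rise was 0.13 (SE 0.04, adjusted p = 0.0447) or 1.10-fold. Its call stood in only 1 of the 8 fits that left out a sample, that without control sample 2 (adjusted p = 0.0219), and in the other 7 the adjusted p was 0.0641 to 0.112. Itga3 read 12.01, 12.02, 11.89 and 11.83 in control samples 1 to 4 and 12.22, 12.22, 12.02 and 11.99 in GRHL2 samples 1 to 4. Each GRHL2 sample was above the control sample of its number while the groups overlapped, and the difference of 0.17 was not called (adjusted p = 0.117). It was called with the replicate block (adjusted p = 0.00229), with a term for replicates 1 and 2 against 3 and 4 (0.00163), in replicates 3 and 4 alone (0.0244) and after scaling to an equal sum (0.0474).

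Itgb4 read 10.29, 10.41, 10.38 and 10.49 in control samples 1 to 4 and 10.41, 10.47, 10.52 and 10.56 in GRHL2 samples 1 to 4, with overlapping groups. Its difference of 0.10 had an adjusted p of 0.249, of 0.0439 with the replicate block and of 0.0873 with the term for replicates 1 and 2 against 3 and 4. The ratio of Itga6 to Itgb4 was 0.88 in control and 0.92 in GRHL2 samples (two-sided exact permutation p = 0.6, n = 4). That of Itga3 to Itgb1 was -1.08 and -1.02 (two-sided exact permutation p = 0.171, n = 4). Neither difference between the groups passed the test, which took no account of the replicate number. Itga7 was low, at 3.70 and 3.77, and was not called (adjusted p = 0.502).

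Collagens are bound by the pairs of Itgb1 with Itga1, Itga2, Itga10 or Itga11. Itga1 (ENSMUSG00000042284, chr13:114953096-115101964, minus strand) read 4.30, 4.55, 4.45 and 4.51 in control samples 1 to 4 and 4.65, 4.68, 4.67 and 4.71 in GRHL2 samples 1 to 4. No control sample reached the lowest GRHL2 sample, and the rise was 0.22 (SE 0.052, adjusted p = 0.0169) or 1.17-fold. Another gene model overlaps 3.68% of its exonic bases. It was called in all 8 fits without 1 sample, at adjusted p of 0.0136 to 0.0443, but without number 1, 3 or 4 in both groups the adjusted p was 0.0502, 0.0837 and 0.0623. Itga2, much the most abundant of these 4 per length, averaged 8.50 and 8.62 (adjusted p = 0.344). Itga10 differed by -0.13 (adjusted p = 0.111; just under 0.05 with the replicate block and 0.0718 with the term for replicates 1 and 2 against 3 and 4), and 33.5% of its exonic bases overlap another gene model, whose reads cannot be told apart. Itga11 lay at -0.50 and -0.46 (adjusted p = 0.184).

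Itga9, a receptor subunit for tenascin and other matrix proteins (ENSMUSG00000039115, chr9:118606690-118901003, plus strand), had the largest difference of the integrin subunits. It read 4.06, 4.01, 4.05 and 4.06 in control samples 1 to 4 and 4.36, 4.58, 4.29 and 4.35 in GRHL2 samples 1 to 4. The control samples were within 0.1 of each other and all GRHL2 samples were higher. The rise was 0.35 (SE 0.057, 95% interval 0.22 to 0.48, adjusted p = 0.00319) or 1.27-fold, and it was called in all 8 fits without 1 sample. Itga8, a receptor subunit for nephronectin, was called at a very low level, 0.80, 0.83, 0.81 and 0.80 in control samples 1 to 4 and 0.87, 0.92, 0.85 and 0.89 in GRHL2 samples 1 to 4. Its difference was 0.071 (SE 0.017, adjusted p = 0.0202), and the call was lost without control sample 1 (0.0596), without control sample 4 (0.0518) or without a mean-variance trend (0.0711).

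Of the subunits that recognise the short RGD motif of fibronectin and vitronectin, the pairing hub is Itgav. It read 10.71, 10.90, 10.83 and 10.79 in control samples 1 to 4 and 10.77, 10.90, 10.80 and 10.72 in GRHL2 samples 1 to 4, with overlapping groups and a difference of -0.011 (95% interval -0.14 to 0.12, adjusted p = 0.922). Its partners other than Itgb1, namely Itgb5, Itgb6, Itgb3 and Itgb8, differed by 0.079, -0.025, 0.089 and 0.0086 and none was called, at adjusted p of 0.747, 0.82, 0.481 and 0.679. Itgb8, which with Itgav binds latent TGF-beta, read -0.76, -0.76, -0.74 and -0.78 in control samples 1 to 4 and -0.76, -0.73, -0.77 and -0.75 in GRHL2 samples 1 to 4. It was near the foot of the table in every sample, 11.57 log2 units below Itgav in control samples. Itgb5, another beta subunit that binds vitronectin with Itgav, read 9.41, 9.32, 9.74 and 9.76 in control samples 1 to 4 and 9.51, 9.34, 9.85 and 9.85 in GRHL2 samples 1 to 4. Replicates 3 and 4 were higher than 1 and 2 in both groups, by more than the groups differed. Itga5, the fibronectin receptor subunit, differed by 0.049 (adjusted p = 0.624).

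Itgb1, the beta subunit of 12 pairs, was the most abundant of the 26 integrin subunits per length, at the percentile 99.1 of all genes. It read 13.06, 13.14, 12.95 and 12.91 in control samples 1 to 4 and 13.19, 13.32, 13.00 and 13.02 in GRHL2 samples 1 to 4. The groups overlapped, each GRHL2 sample was above the control sample of its number, and the difference of 0.12 was not called (adjusted p = 0.342) but was with the replicate block (0.0144) and with a term for replicates 1 and 2 against 3 and 4 (0.0309). Itgb1 was the lower partner in 0 of its 12 pairs. Over the 23 pairs with both subunits in the table, the alpha subunit was the lower one in 17 per length (without the length the lower partner changed in 1 pair, from Itgb3 to Itga2b), and in 8 pairs the lower partner was above the table median.

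**Figure D4:**
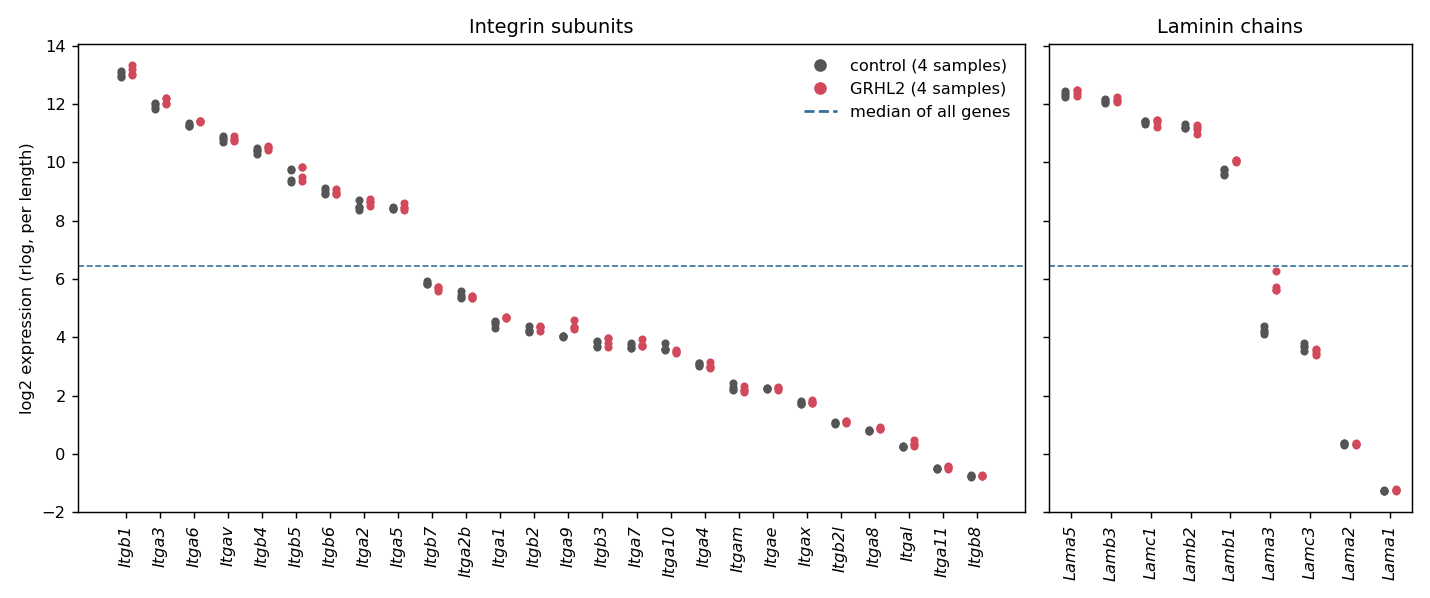
Level of each integrin subunit and laminin chain in every sample, in log2 units per transcript length, with 4 control samples in grey and 4 GRHL2 samples in red, genes ordered by mean within integrins and within laminins, and a dashed line at the table median of 6.45. Of the 26 integrin subunits 9 lie above the median, led by Itgb1, and of the 9 laminin chains 5 do, led by Lama5.

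Itgb7 was the 1 gene of the 35 that fell in the fit without the block (ENSMUSG00000001281, chr15:102215995-102231944, minus strand). It pairs with Itga4 or Itgae on lymphocytes. It read 5.92, 5.84, 5.84 and 5.85 in control samples 1 to 4 and 5.59, 5.74, 5.71 and 5.66 in GRHL2 samples 1 to 4. Control sample 1 was the highest, and every GRHL2 sample was below every control sample. The difference was -0.19 (SE 0.045, 95% interval -0.29 to -0.09, adjusted p = 0.018) or 0.877-fold, and the call was lost without control sample 1 (0.0568). Itga4 and Itgae averaged 3.05 and 2.24 and were not called (adjusted p = 0.592 and 0.761). Among the leukocyte pairs of Itgb2, Itgal differed by 0.097 (adjusted p = 0.064; 0.0206 with the replicate block) and Itgam by -0.076 (adjusted p = 0.36; 0.0385 with the block). With the term for replicates 1 and 2 against 3 and 4 the adjusted p was 0.0282 for Itgal and 0.127 for Itgam, and 68.7% of the exonic bases of Itgam overlap another gene model. Itgax and Itgb2 differed by 0.027 and 0.08, and Itgb2l, a close relative of Itgb2, by 0.047 (adjusted p = 0.561, 0.316 and 0.138). Itga2b, the platelet subunit that pairs with Itgb3, differed by -0.057 (adjusted p = 0.503). None of these 4 was called in the main fit. Itgb2l was called higher after scaling to an equal upper quartile (adjusted p = 0.0227) and in replicates 3 and 4 alone. It was also called without GRHL2 sample 2 and without number 2 in both groups. Of 6 leukocyte markers 4 had a row and 0 were called, or 1 with the replicate block (Cd68, higher), where 18.2% of all genes were higher. Ptprc and Cd3e, which define leukocytes and T cells, averaged 0.89 and 0.14, and Csf1r, also on the list, averaged 4.46. The summed level of the list was 6.43 to 6.63 in control and 6.62 to 6.71 in GRHL2 samples. Cd68, at a mean of 6.17, made up most of it, and the list's part in the Itgb7 values was not tested.

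Genes that work with integrins and laminins were counted from a list of 79, of which 75 had a row. In GRHL2 samples 18 rose and 2 fell, or 24.0% rising against 10.5% of all genes and 2.67% falling against 5.91%. With the replicate block 30 rose and 8 fell, where 18.2% and 13.9% of all genes did. Of the 7 other laminin receptors 5 rose. Bcam, which binds Lama5, read 6.11, 6.004, 6.41 and 6.40 in control samples 1 to 4 and 6.79, 6.51, 7.12 and 7.22 in GRHL2 samples 1 to 4. Replicates 3 and 4 were higher than 1 and 2 in both groups, and every GRHL2 sample was above all control samples, with a rise of 0.68 (SE 0.15, adjusted p = 0.0151). Dag1, the precursor of dystroglycan, rose by 0.21 (adjusted p = 0.0175), and the syndecans Sdc1, Sdc2 and Sdc4 rose by 0.26, 0.21 and 0.18.

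For each list that follows, the shares of all genes to set beside its counts are 10.5% rising and 5.91% falling, or 18.2% and 13.9% with the replicate block, and no list was tested against them. Of 8 hemidesmosome and tetraspanin partners 3 rose (37.5%), the tetraspanins Tspan1 (by 0.54, adjusted p = 5.63e-05) and Cd82 (by 0.30, adjusted p = 0.0499) and the hemidesmosomal collagen Col17a1 (by 0.25, adjusted p = 0.00418). The hemidesmosomal linkers Plec and Dst differed by -0.22 and -0.23 and were not called (adjusted p = 0.154 and 0.262), but both were lower with the replicate block (adjusted p = 0.00901 and 0.0267) and in all 4 same-numbered pairs. With the block the tetraspanin Cd81 was also higher (difference 0.14, adjusted p = 0.0134). Of 11 basement membrane linkers 4 rose (36.4%), Smoc2 by 0.51, Smoc1 by 0.47, Fras1 by 0.24 and Agrn, the heparan sulfate proteoglycan agrin, by 0.28. With the block 6 were higher, Nid2 and Npnt being added (adjusted p = 0.017 and 0.0132), and Sparc was lower (difference -0.15, adjusted p = 0.0134).

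Of 12 other integrin ligands 4 rose (33.3%): Thbs1 by 0.51, Cdh1, the ligand of Itgae, by 0.29, Fn1, fibronectin, by 0.24, and Tnc, which stayed near the foot of the table, by 0.057. With the block 6 were higher. The additions were Spp1, osteopontin, whose difference of 0.57 was the largest of this list (adjusted p = 0.25; 6.96e-05 with the block), and Vcam1 (0.18, adjusted p = 0.482; 0.0118 with the block). Each was higher in all 4 same-numbered pairs. Of 30 adhesion adaptors and kinases 1 rose (3.33%), Tns4 (by 0.49), and 2 fell (6.67%), Fermt3 (difference -0.22, adjusted p = 0.025) and Parvg (-0.18, adjusted p = 0.0487), both known chiefly from blood cells. With the block 4 were higher and 5 lower. It added Fermt1, Ptk2b and Rsu1 as higher (adjusted p = 0.029, 0.00472 and 0.0266) and Tln1, talin, Lims1 and Actn1 as lower (adjusted p = 0.0224, 0.014 and 0.0155). Of 7 genes of latent TGF-beta 1 rose (14.3%), Lrrc32 by 0.12. With the block 5 were higher, Tgfb1, Tgfb3, Ltbp1 and Ltbp3 being added with differences of 0.22, 0.12, 0.13 and 0.16 (adjusted p = 0.00234, 0.0403, 0.0305 and 0.00713).

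Promoter sequence is shown for 4 of the called genes, 3 that rose and the 1 that fell, whose RefSeq start (build GRCm38.p6) lay within 200 bases of the GENCODE M21 gene start. Each line holds the 250 bases before the start on the gene's strand, 5′ to 3′, from chr12:31265043-31265292 for Lamb1 (plus strand), chr13:115101965-115102214 for Itga1 (minus strand), chr2:12301945-12302194 for Itga8 (minus strand) and chr15:102231936-102232185 for Itgb7 (minus strand). Capitals mark GGGCGG, the core of the GC box, read here on the other strand, which stands in Lamb1 alone of these 4.
Lamb1: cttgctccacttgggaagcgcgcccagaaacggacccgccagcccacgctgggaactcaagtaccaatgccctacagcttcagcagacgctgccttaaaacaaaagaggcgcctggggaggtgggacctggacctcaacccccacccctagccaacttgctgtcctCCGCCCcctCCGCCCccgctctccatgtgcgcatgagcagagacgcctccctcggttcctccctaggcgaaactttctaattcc
Itga1: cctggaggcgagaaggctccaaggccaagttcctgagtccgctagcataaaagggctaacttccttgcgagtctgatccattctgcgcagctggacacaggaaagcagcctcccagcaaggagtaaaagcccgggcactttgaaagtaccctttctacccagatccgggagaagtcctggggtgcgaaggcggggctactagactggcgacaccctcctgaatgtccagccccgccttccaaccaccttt
Itga8: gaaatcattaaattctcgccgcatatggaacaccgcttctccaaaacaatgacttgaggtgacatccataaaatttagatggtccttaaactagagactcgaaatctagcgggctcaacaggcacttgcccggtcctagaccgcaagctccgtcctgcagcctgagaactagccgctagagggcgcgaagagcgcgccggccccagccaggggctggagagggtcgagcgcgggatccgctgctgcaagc
Itgb7: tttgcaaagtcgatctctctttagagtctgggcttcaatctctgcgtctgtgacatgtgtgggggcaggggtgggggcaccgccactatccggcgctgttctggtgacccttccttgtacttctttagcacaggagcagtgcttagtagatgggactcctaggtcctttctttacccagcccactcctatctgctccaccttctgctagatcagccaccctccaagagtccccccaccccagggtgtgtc

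Motifs were searched on both strands in windows of 300 bases, 250 before and 50 after the start. Windows on chr18 were left out, so the called gene Lama3, which lies there, was not searched. The promoters used for comparison were not limited in this way. RefSeq windows were found for 24 of the 35 genes, not including the called gene Itga6. There were 27 in all, and 19 of the 27 lay within 200 bases of the GENCODE gene start. The others lay farther off, up to 105002 bases for Itga9. GGGCGG stood in 12 of the 27 windows and in 10 of the 19 near ones, against 35.7% of 32851 promoters. AACCGGTT, the palindrome that grainyhead-like factors are known to bind, was in 0 of 27 windows, against 0.146% of promoters, and the looser AACNNGTT, which contains it, was in 1, at a second start of Itgb6 48950 bases from the gene start, and in 0 of the 19 near windows, against 4.20% of promoters. TATAAA was in 0 of 27, against 13.6%. These counts describe the letters of the windows only. The median GC content was 58.7% in the 27 windows and 52.7% in all promoters.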

How the data were processed

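RNA was sequenced as paired ends. The values deposited by the authors are log2 values: reads were aligned with HISAT2 2.2.1 to mm10, exon counts were made with HTSeq 0.9.1 without strand, genes with few reads were dropped, and DESeq2 1.40.2 gave regularised log2 values. The versions are those of the submitters' processing notes, and the study's methods, which give the steps, name other versions of HISAT2 and DESeq2. These methods do not name every table, so their use for this one was taken as given. Subtraction of log2 transcript length was read from the values: over 5 groups of genes by length the 1st percentile ranged by 2.47 as deposited and by 0.098 with log2 length added (18428 genes with a length). The values ran from -2.85 to 18.01, and 4.81% lay below 0.

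The 8 columns, all matched to samples by name, were fitted in limma 3.58.1 (R 4.3.3) with a mean-variance trend, with no pseudocount and no filter, for GRHL2 against control, and adjusted over all 18671 genes. Ratios within a sample were compared with a two-sided exact permutation test.

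Deviations from the group mean correlated between control and GRHL2 samples of one number (r = 0.474, 0.565, 0.549 and 0.645 over genes), each above the 0.1 set for treating the numbers as pairs, with no label saying so. Replicates 1 and 2 stood apart from 3 and 4, and differently numbered samples within these sets correlated nearly as well (r = 0.345 to 0.602), while those across the sets gave r = -0.611 to -0.399. GRHL2 sample 3 correlated best with control sample 4. These values do not separate pairing by number from the split. The fit with the replicate number as a block was an alternative, as were scaling to an equal upper quartile or sum, a minimum mean, a term for that split, a minimum difference and leaving out each sample. The main fit had no block although the 0.1 was passed, since the study's methods name none. With the block 14 of the 35 genes were called, against 7 without it. Values in every sample were given for called genes, for Itga3 and Itgb8, and for the 6 integrin subunits and the laminin chains with the highest means. From the partner list the 3 largest rises and the falls were to be named, and the other called partners were added after their values were seen. A member and a marker gene are not reported here and were left out of the counts over lists. The members and gene lists were chosen with earlier results of these data known. Gene positions are from GENCODE M21 and promoters from RefSeq.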

Additional observations from a re-analysis of the deposited data

Results flagged for a closer look

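In 7 of the 72 groups of 4 samples examined, 1 sample stood far from the other 3 for the spread of its group (Dixon's test, 95% critical value). Chance marks about 1 group in 20, or about 3.6 of 72, and 4 of the 7 samples were replicate 2. For Lama3, GRHL2 sample 2 was at 6.28 and the nearest other at 5.71. Itgb7 was 5.92 in control sample 1, with the nearest at 5.85. Itga10 was 3.79 in control sample 4, with the nearest at 3.60, and Itga7 was 3.95 in GRHL2 sample 2, with the nearest at 3.73. Itgb2 was 4.23 in GRHL2 sample 2, below the nearest at 4.36. Lama1 was -1.24 in control sample 2, with the nearest at -1.27, and Lamb2 was 11.32 in control sample 4, with the nearest at 11.20.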

How the results depend on the processing

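Lama3, Lamb1 and Itga9 kept their call under every alternative that was run. Of the 35 genes, 10 rose with an equal sum, 10 with the replicate block and 3 in replicates 1 and 2 alone, and 4 to 7 rose without 1 sample. The number that fell was 4 with the replicate block, 2 with a term for replicates 1 and 2 against 3 and 4, 0 in either pair of replicates alone, 0 with a minimum difference of 0.2, and 0 to 2 without 1 sample. Leaving a replicate number out of both groups gave 3 to 7 rising and 0 to 1 falling. This and the fits on 2 replicates were chosen after seeing the data.

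Over all genes, 3064 rose with an equal upper quartile, 3396 with the replicate block, 1154 with a mean of at least 3, 3270 with the term for the split, 1021 in replicates 1 and 2, 1075 with a minimum difference of 0.2, 1326 to 1848 without 1 sample and 855 to 1572 without a number (1158 without number 3, 1266 without number 4). Those that fell were 2589 with the block, 2478 with the split term, 339 in replicates 1 and 2, 1667 in replicates 3 and 4, 690 to 1036 without 1 sample and 312 to 941 without a number (445 without number 3, 522 without number 4). Scaling moved the share of rising calls from 63.9% to 75.9% (upper quartile; 972 fell) and 77.0% (equal sum; 2912 rose, 869 fell). Of the partner genes 38 were called with the block, 32 with the split term, 9 in replicates 1 and 2, 11 to 19 without 1 sample and 8 to 18 without a number (12 without number 4). The median over the 35 genes was 0.069 with the upper quartile, 0.071 with an equal sum and 0.067 with a mean of at least 3.

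Differences that changed sign belonged to genes not called. With the upper quartile and the equal sum they were Itgav (0.012, 0.013), Lama2 (0.011, 0.012) and Lamc1 (0.0097, 0.011). In replicates 1 and 2 they were Itgav (0.030) and Itgb6 (0.074), and in replicates 3 and 4 Itga4 (0.021), Itgae (-0.031), Lamb3 (-0.061) and Lamc1 (0.019). Without 1 sample, Itga5 ranged from -3.4e-06 to 0.089, Lamb3 from -0.00057 to 0.056, Lamc1 from -0.038 to 0.039, Itgav from -0.047 to 0.021 and Itgb6 from -0.058 to 0.014. Without a number, Itgae ranged from -0.0069 to 0.037, Lama2 from -0.023 to 0.0028, Lamb3 from -0.0097 to 0.076, Lamc1 from -0.039 to 0.017, Itgav from -0.034 to 0.0098 and Itgb6 from -0.080 to 0.012 (0.0039 without number 4). The causes were not tested. A minimum difference gave no value for single genes. Depth is unknown, so no counting limit can be set for the low genes.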
